A study of Mus musculus with 23 samples.

Results

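The genes described here are 9 actins and alpha-actinins of mouse quadriceps: the actin isoforms Acta1, Acta2, Actb, Actc1 and Actg1 and the alpha-actinins Actn1, Actn2, Actn3 and Actn4. They were chosen by symbol and matched to Ensembl identifiers, which gave 9 of the 55573 gene IDs in the count table. No measured value entered the match, but the list was drawn up with results of these data in view. Adjusted p-values below therefore set a difference against the spread between mice and are not independent support for the choice. Actg2, the sixth actin gene, is outside the list, and at most 140 reads fell on it in any mouse. RNA was sequenced from quadriceps of C57BL/6J mice of both sexes, 8 to 10 weeks of age, and no group carried an engineered allele. Corticosterone-treated mice (CORT) carried a subcutaneous slow-release pellet of 50 mg corticosterone and 50 mg cholesterol for 14 days. Vehicle-treated mice (VEH) carried 100 mg cholesterol for the same time, and all mice were fasted for 5 hours before the end. There were 6 VEH males, 6 CORT males, 6 VEH females and 5 CORT females, named below by sex and number (M1, F1).

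Actin is the monomer of the thin filament, along which myosin pulls, and skeletal fibers of adult animals build theirs mainly from the product of Acta1. Actc1 encodes the alpha-actin of heart muscle, which developing and regenerating skeletal fibers also make, and Acta2 the alpha-actin of vascular smooth muscle. Actb and Actg1 encode the cytoplasmic actins of nearly all cells, which form the cortex, stress fibers and the arrays that move cells. Alpha-actinins are antiparallel dimers that cross-link actin filaments. Actn2 and Actn3 encode the sarcomeric forms, which anchor thin filaments in the Z-disc, and Actn3 is restricted to fast glycolytic fibers whereas Actn2 is made in all skeletal fibers and in heart. Actn1 and Actn4 encode the non-muscle forms found at adhesions and stress fibers.

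The coding sequences of the actins are close to each other, and the start is among the places where the cytoplasmic forms differ from the sarcomeric ones. The first 60 coding bases of the 2 sarcomeric and the 2 cytoplasmic actins are printed below, because these are the pairs whose levels are compared. They come from the GENCODE M21 transcripts (GRCm38), and capitals mark bases that differ from Acta1 in a pairwise alignment. Gaps of the alignment are not drawn, so the Actb and Actg1 rows are not in register with the Acta1 row.
Acta1: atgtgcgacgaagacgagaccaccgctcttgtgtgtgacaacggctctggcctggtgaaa
Actc1: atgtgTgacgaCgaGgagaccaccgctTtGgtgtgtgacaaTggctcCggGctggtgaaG
Actb: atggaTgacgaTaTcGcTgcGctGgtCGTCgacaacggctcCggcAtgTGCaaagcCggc
Actg1: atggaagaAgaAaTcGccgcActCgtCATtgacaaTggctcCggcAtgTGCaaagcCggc

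Over the whole coding sequence, Acta1 and Actc1 were identical at 86.2% of aligned bases, Acta1 and Actb at 84.8% and Actb and Actg1 at 88.7%. Actn2 and Actn3 were identical at 74.9% and Actn1 and Actn4 at 78.8%. No stretch of 100 bases, the read length, was shared between the transcripts of Acta1, Acta2, Actc1, Actn2 or Actn3 and those of any other gene. Of the 100-base stretches in the Actg1 transcript, 51.1% recurred in the transcripts of 6 other genes, pseudogenes and predicted genes such as Gm12715 and Actg-ps1, so that counts of Actg1, made from uniquely assigned reads, are uncertain. These 6 genes held 13 to 44 reads in all per mouse, against 761 to 2747 for Actg1. Shared stretches made up 7.26% of the Actn1 transcript, 5.74% of Actn4 and 1.1% of Actb. On the opposite strand, Actn4 overlaps Capn12, which held 1 to 11 reads, and Actc1 overlaps A530058N18Rik, which held at most 2.

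Promoters were available from RefSeq (GRCm38.p6) for 7 of the 9 genes, not for Actb or Actn3. A CArG box, the binding site of serum response factor (SRF), was looked for in the 300 bases from 250 before to 50 after the start. Only the strict form was counted: CC, then 6 bases of A or T, then GG, which reads the same on both strands. Boxes with any other letter were missed, so a promoter without a match may still hold an SRF site. The strict form was present in 3 of the 7, those of Acta1, Actc1 and Actg1, each time before the start. It was present in 1.64% of all 32544 distinct promoter sequences of this length. The box and 25 bases on each side are printed below because these 3 genes include 2 that changed with corticosterone; capitals mark the box.
Actc1, chr2:114052888-114052947, minus strand, box beginning 47 bases before the start: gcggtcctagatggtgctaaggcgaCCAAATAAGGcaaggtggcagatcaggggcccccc
Acta1, chr8:123894814-123894873, minus strand, box beginning 73 bases before the start: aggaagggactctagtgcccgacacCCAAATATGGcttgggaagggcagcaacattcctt
Actg1, chr11:120348551-120348610, minus strand, box beginning 90 bases before the start: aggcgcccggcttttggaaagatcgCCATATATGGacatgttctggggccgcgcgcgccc

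None of the 7 windows held an exact match to the MEF2 site pattern, found in 3.16% of all promoter sequences. None held the ACANNNTGT core of a glucocorticoid response element, also the same on both strands and present in 6.83%. These matches describe letters in a window and say nothing of binding in these muscles.

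Each library held between 20904150 and 21984477 read pairs assigned to genes, so depth differed little between mice. Markers of skeletal fibers summed to 81056 to 226218 CPM (counts scaled to the size of the library) in every mouse, and of the 7 cardiac markers Nppa, Nppb, Myl7 and Mybpc3 never exceeded 3 reads. Adipocyte markers summed to 1564 to 3380 CPM in the CORT females F2, F6 and F10 and to at most 508 CPM in VEH mice. Hepatocyte markers summed to over 1000 CPM in M8, M9, M12, F6 and F10, of which M9 had received vehicle. Fibroblast markers summed to 905 to 1373 CPM in VEH and 329 to 494 CPM in CORT males. The main results that move with these mice are given below with and without them, and the part of other cell types in them was not tested. In whole muscle, fewer cells of a type and less RNA per cell cannot be told apart.

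Levels were compared between genes as CPM per kb of exon, and comparisons between genes depend on the length used. In VEH males, Acta1 stood at 24942 ± 2327 CPM per kb (SD, n = 6) and Actn3 at 2287 to 3588 with a mean of 2895 (n = 6), followed by Actc1 at 347 ± 161 (n = 6). Actn2, at 158 ± 119 CPM per kb, overlapped Actc1 above it and Actb below it, and Actg1, Acta2 and Actn4 followed at 38.1, 17.7 and 9.11 CPM per kb without overlap between neighbours. Actn1 was lowest in each of the 4 groups, at 1.39 ± 0.141 CPM per kb in VEH males (n = 6). Acta1 and Actn3 held places 1 and 2 in each group. Actc1 took place 3 in VEH mice of both sexes, place 5 in CORT males and place 4 in CORT females.

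**Figure D1:**
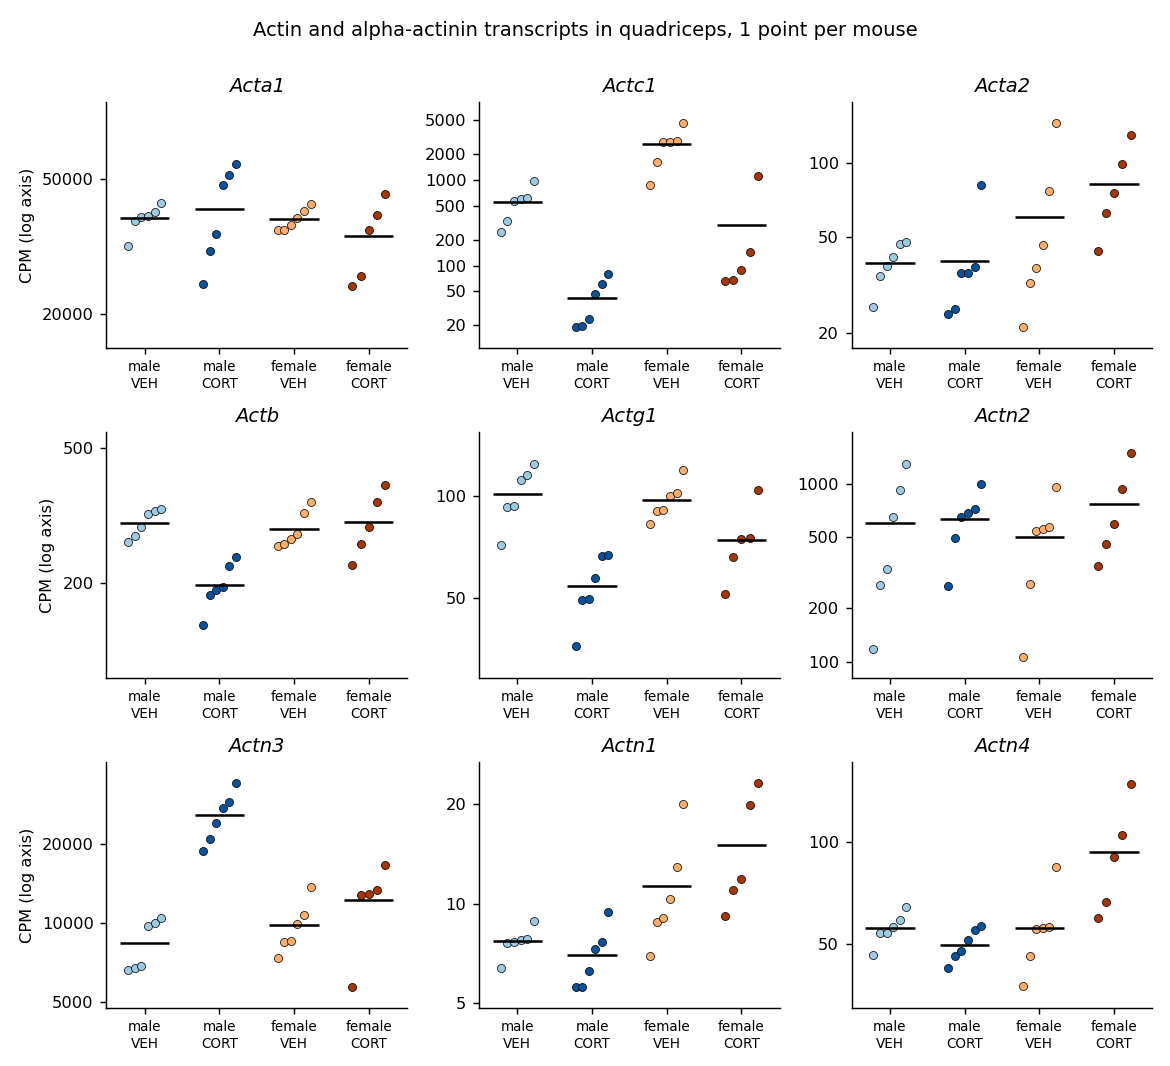
CPM of each of the 9 genes in each of the 23 mice, on a log axis, with a point per mouse and a bar for the group mean. CORT males lie apart from VEH males for Actc1, Actb and Actg1, all lower, and for Actn3, higher, whereas in females the groups overlap for every gene.

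In males, 4 of the 9 genes passed an adjusted p of 0.01 (edgeR quasi-likelihood, Benjamini-Hochberg adjusted over 13049 genes), beside 26.3% of all genes tested. Actn3 was higher, where 13.2% of all genes were, and Actb, Actc1 and Actg1 were lower, where 13.1% were. The same 4 genes did not overlap between CORT and VEH males, beside 21.9% of all genes. Each of the 4 passed the same threshold in 32 of 32 other analyses, and with a log2FC beyond 1 asked for as well, Actc1 and Actn3 did. In females, Actc1 was lower and Actn4 higher, so that 2 of 9 passed beside 13.4% of all genes, 7.40% higher and 6.0% lower. No member was free of overlap between the groups of females, beside 7.72% of all genes. The male and female comparisons have no mouse in common.

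**Figure D2:**
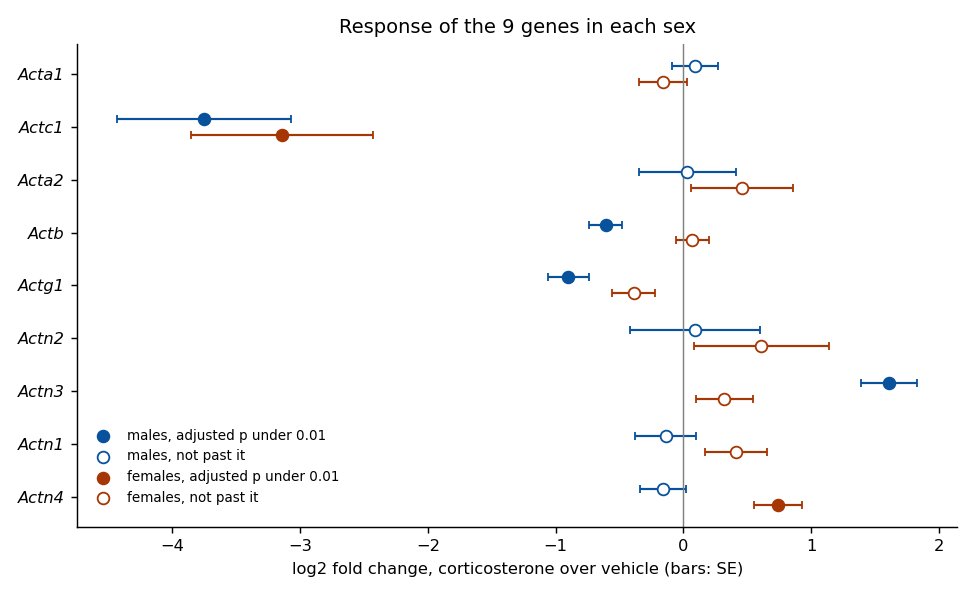
Log2 fold change of CORT over VEH for the 9 genes in males and in females, with bars of 1 SE, filled where the adjusted p was under 0.01. Actc1 lies to the left of 0 in both sexes, at -3.75 in males and -3.14 in females, and Actn3 reaches 1.61 in males against 0.32 in females.

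Actc1 showed the widest change of the family. In VEH males it ranged from 250 to 990 CPM with a median of 585, and in CORT males from 19.0 to 80.6 CPM with a median of 35.2. The log2 fold change (log2FC) was -3.75 (SE 0.68, edgeR adjusted p = 0.000185), and all 6 CORT males lay below all 6 VEH males. In VEH females Actc1 was more abundant, from 872 to 4687 CPM with a median of 2795. In CORT females it stood at 89.4 CPM in F2, 65.2 in F6, 144 in F8, 68.0 in F10 and 1113 in F4. Of these 5 mice, only F4 reached the range of the VEH females, and all 5 lay below the VEH mean of 2616 ± 1299 CPM (SD, n = 6). The log2FC in females was -3.14 (SE 0.71, edgeR adjusted p = 0.00283), and without F4 it was -4.83 (edgeR adjusted p = 5.93e-06). Without F2, F6 and F10, which carried adipocyte markers, 2 CORT females remained, F4 among them, and Actc1 no longer passed (log2FC -2.07, edgeR adjusted p = 0.152). Without the mice that carried hepatocyte markers the log2FC was -2.56 (edgeR adjusted p = 0.0484), and Actc1 missed the threshold without F2 alone and in females fitted apart from the males.

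Acta1 did not pass in either sex. In VEH males it ranged from 31832 to 42530 CPM with a median of 38803, and in CORT males from 24581 to 55472 CPM with a median of 41186. The male groups overlapped, with 3 of 6 CORT males above the VEH mean, and the spread in CORT males (coefficient of variation 30.7%) was wider than in VEH males (9.33%), a difference that was not tested. The log2FC was 0.09 (SE 0.18, edgeR adjusted p = 0.725) in males and -0.16 (SE 0.19, edgeR adjusted p = 0.564) in females. The 2 lowest CORT males, M8 at 24581 and M12 at 30729 CPM, carried hepatocyte markers, and without the mice so marked the male log2FC was 0.35 (edgeR adjusted p = 0.0475). In CORT females Acta1 stood at 45299 CPM in F4, 35494 in F2, 39160 in F8, 25918 in F6 and 24181 in F10. The 2 lowest values were in F6 and F10, which carried both hepatocyte and adipocyte markers. VEH females ranged from 35365 to 42305 CPM.

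Of all actin transcripts counted per kb, Actc1 made up 1.34% ± 0.601 (SD, n = 6) in VEH males and 0.0962% ± 0.0454 (n = 6) in CORT males. In VEH females its share was 6.0% ± 2.68 (n = 6), and in CORT females it was 0.235% to 0.347% in 4 mice and 2.27% in F4. Acta1 took up the remainder in the main, at 98% of actin transcripts in VEH males, 99.5% in CORT males, 93.3% in VEH females and 98.4% in CORT females. The lowest Acta1 share of any mouse was 89.6%, in the VEH female F1. The summed markers of heart and of developing muscle did not fall with Actc1 in males. The 7 cardiac markers summed to 0.705 to 5.89 CPM in VEH males and 1.85 to 7.16 CPM in CORT males. Only 1 of the 7 had enough reads to be tested, so a fall in the others could hardly be seen. Tnnt2 held 12 to 64 reads in VEH and 39 to 109 in CORT males, whereas Tnni3 held 2 to 13 and 0 to 5. Markers of developing or denervated fibers summed to 16.4 to 32.1 CPM in VEH and 35.2 to 53.1 CPM in CORT males, without overlap. Of the 6 measured 1 passed, or 16.7% beside 26.3% of all genes. It was Myog, the muscle regulator myogenin (log2FC 1.76, SE 0.28, edgeR adjusted p = 5.05e-05). In females these sums were 30.7 to 56.6 CPM in VEH and 22.8 to 54.6 CPM in CORT mice.

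The gene next to Actc1 changed with it. C130080G10Rik, an antisense transcript read from the opposite strand that begins 786 bases beyond the end of the Actc1 model at its 5′ side, was at 9 to 48 reads in VEH males and 0 to 7 in CORT males. Its log2FC was -2.79 in males (SE 0.68, edgeR adjusted p = 0.00244). In females it went from 25 to 413 reads in VEH to 3 to 8 reads in CORT (log2FC -4.69, SE 0.69, edgeR adjusted p = 7.63e-05). The CORT female F4, which held 1113 CPM of Actc1, had 0.385 CPM of C130080G10Rik, or 8 reads, against 0.136 to 0.344 CPM in the other CORT females and at least 1.10 CPM in VEH females. At so few reads the fold changes carry a wide counting error. The 786 bases are counted from the end of the GENCODE model of Actc1, 114053548, which lies upstream of the RefSeq start used for the CArG box. Gm29773, 1521 bases beyond Acta1, did not pass in males (log2FC -0.69, SE 0.28, edgeR adjusted p = 0.0574) or in females (-1.03, SE 0.30, edgeR adjusted p = 0.015).

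Actn3 rose in males. It ranged from 6635 to 10410 CPM with a median of 8295 in VEH males and from 18842 to 34009 CPM with a median of 25597 in CORT males. All 6 CORT males lay above all 6 VEH males, and the log2FC was 1.61 (SE 0.22, edgeR adjusted p = 7.52e-06), a 3.05-fold rise. In VEH females Actn3 ranged from 7362 to 13725 CPM with a median of 9263. In CORT females it stood at 12731 CPM in F4, 16657 in F2, 13294 in F8, 12899 in F6 and 5709 in F10. The CORT females thus overlapped the VEH females, with F2 above all of them and F10 below all of them (log2FC 0.32, SE 0.22, edgeR adjusted p = 0.298). F10 also had the lowest sum of skeletal fiber markers of any mouse, 81056 CPM. Without F10 the adjusted p in females was 0.0733, the lowest of all alternatives.

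Actn2, the partner of Actn3 in the Z-disc, did not pass in either sex and varied more within groups. VEH males ranged from 118 to 1301 CPM with a median of 493, and CORT males from 266 to 1002 CPM with a median of 667 (log2FC 0.09, SE 0.51, edgeR adjusted p = 0.910). VEH females ranged from 106 to 965 CPM, and CORT females held 596 CPM in F4, 461 in F2, 1494 in F8, 345 in F6 and 941 in F10 (log2FC 0.61, SE 0.53, edgeR adjusted p = 0.425). The groups overlapped throughout. Markers of slow fibers, which are built without Actn3, varied within each group as well, from 1.22 CPM in M9 to 3935 CPM in M5 among VEH males. M9 and M5 also held the lowest and the highest Actn2 of the VEH males. Among VEH females the lowest and highest slow fiber sums, 10.9 CPM in F9 and 4562 CPM in F3, likewise fell on the mice lowest and highest in Actn2. In CORT mice the extremes matched only at the low end of the males, in M8. The highest slow fiber sum was in M6 and the highest Actn2 in M10, and in CORT females F2 had the highest slow fiber sum, 2506 CPM, with 461 CPM of Actn2.

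Per kb, Actn3 made up 94.2% ± 4.72 of the 2 sarcomeric alpha-actinins in VEH males (SD, n = 6) and 98% ± 1.07 in CORT males (n = 6), with ranges of 87.4% to 99.1% and 96.1% to 99.3% that overlapped. In females the means were 95.8% ± 2.92 (n = 6) and 94.7% ± 4.07 (n = 5). Set against Acta1, the main thin filament transcript, there were 11.6 ± 1.97 Actn3 transcripts per 100 of Acta1 in VEH males (n = 6) and 35.4 ± 11.9 in CORT males (n = 6). These ranges, 9.22 to 13.6 and 26.5 to 58.7, did not overlap. In females the ratio was 13.5 ± 2.36 per 100 (n = 6) and 19.3 ± 6.08 (n = 5), with overlap.

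**Figure D3:**
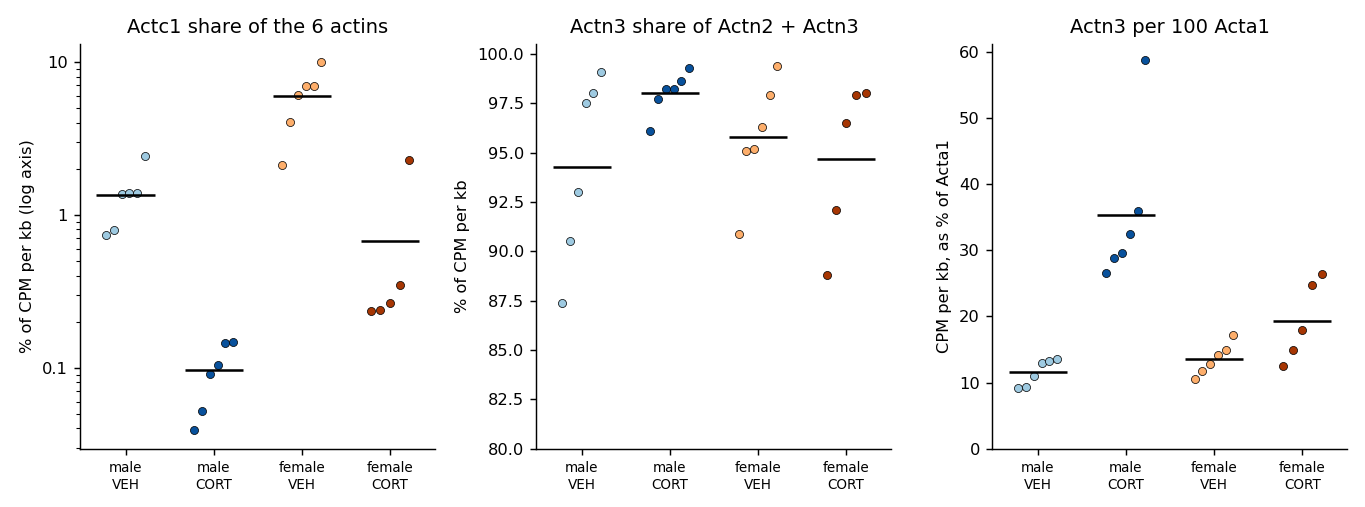
Isoform balance per mouse, from CPM per kb of exon, with bars for group means: Actc1 as a share of the 6 actins (log axis), Actn3 as a share of Actn2 and Actn3 (axis from 80%), and Actn3 per 100 Acta1. The Actc1 share of F4, 2.27%, lies far above the 0.235% to 0.347% of the other CORT females, and the 6 CORT males lie at 26.5 to 58.7 Actn3 per 100 Acta1 against 9.22 to 13.6 in VEH males.

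The genes on the sides of Actn3 moved differently from each other. Zdhhc24, which encodes a member of the palmitoyltransferase family and lies 758 bases away on the opposite strand, went from 2.88 to 3.92 CPM in VEH males to 5.25 to 7.13 CPM in CORT males. Its male groups did not overlap (log2FC 1.0, SE 0.13, edgeR adjusted p = 6.15e-06), and in females it did not pass (0.26, SE 0.14, edgeR adjusted p = 0.165). Ctsf, which encodes cathepsin F and lies 297 bases from the other end of Actn3, was at 26 to 33.6 CPM in VEH and 22.3 to 28.4 CPM in CORT males (log2FC -0.11, SE 0.09, edgeR adjusted p = 0.378).

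The cytoplasmic actins were lower in CORT males. Actb ranged from 264 to 330 CPM with a median of 306 in VEH males and from 150 to 238 CPM with a median of 193 in CORT males (log2FC -0.61, SE 0.13, edgeR adjusted p = 0.000615). Actg1 ranged from 71.5 to 124 CPM with a median of 102 in VEH males and from 36.1 to 66.8 CPM with a median of 53.5 in CORT males (log2FC -0.90, SE 0.16, edgeR adjusted p = 0.000178). For both genes every CORT male lay below every VEH male. Fibroblast markers, at 905 to 1373 CPM in VEH and 329 to 494 CPM in CORT males, did not overlap either, and their part in the 2 results was not tested. Endothelial markers ranged from 287 to 462 CPM in VEH and 252 to 364 CPM in CORT males.

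In females neither cytoplasmic actin passed. Actb ranged from 257 to 346 CPM in VEH females, and stood at 260 CPM in F4, 292 in F2, 226 in F8, 390 in F6 and 346 in F10 after CORT (log2FC 0.07, SE 0.13, edgeR adjusted p = 0.749). Actg1 ranged from 82.4 to 119 CPM in VEH females, and stood at 66.2 CPM in F4, 75.2 in F2, 51.5 in F8, 104 in F6 and 74.4 in F10 after CORT (log2FC -0.39, SE 0.17, edgeR adjusted p = 0.0944). Of the 5 CORT females, 4 lay below the VEH mean of Actg1, and 2 below that of Actb. Without the 3 mice that carried adipocyte markers the log2FC was -0.26 for Actb (edgeR adjusted p = 0.389) and -0.74 for Actg1 (edgeR adjusted p = 0.0657). Per kb there were 300 ± 36.3 Actb transcripts per 100 of Actg1 in VEH males (n = 6) and 296 ± 27.3 in VEH females (n = 6). The ratio was 367 ± 46.9 in CORT males (n = 6), with overlap, and 409 ± 38.3 in CORT females (n = 5), where the lowest value, 371, was above the highest of VEH females, 336.

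The gene next to Actg1 is 0610009L18Rik, a noncoding transcript that begins 135 bases away and is annotated as sharing its promoter in the opposite direction. It ranged from 15 to 24.6 CPM in VEH males and 10.6 to 14.1 CPM in CORT males, without overlap (log2FC -0.75, SE 0.15, edgeR adjusted p = 0.000577). In females its log2FC was -0.39 (SE 0.16, edgeR adjusted p = 0.0774), and the groups overlapped.

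**Figure D4:**
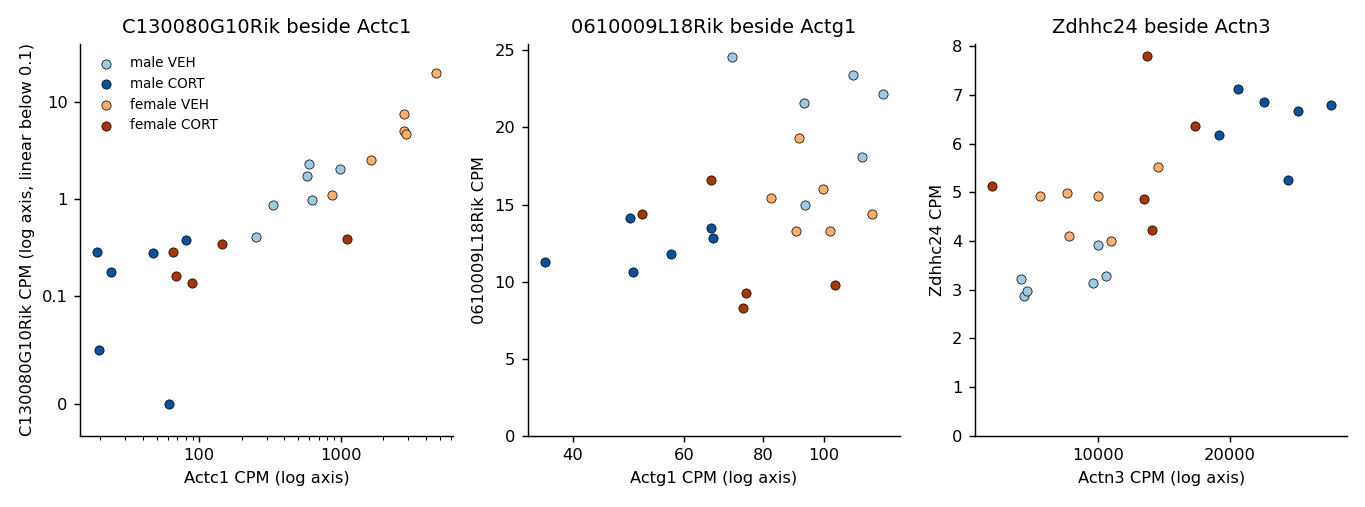
CPM of the neighbouring gene against CPM of Actc1, Actg1 or Actn3, with a point per mouse and colours for the 4 groups; the left panel has log axes, linear below 0.1 CPM. CORT males lie low on both axes for the neighbours of Actc1 and Actg1 and high on both axes for Zdhhc24 beside Actn3, where they reach 5.25 to 7.13 CPM. The neighbours Gm29773, Stambpl1 and Ctsf are not drawn.

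Acta2, the smooth muscle actin, did not pass in either sex. It ranged from 25.6 to 47.5 CPM with a median of 39.6 in VEH males and from 24.0 to 81.3 CPM with a median of 35.4 in CORT males (log2FC 0.03, SE 0.38, edgeR adjusted p = 0.953). The value of 81.3 CPM belonged to M2, and the next was 37.5 CPM. In VEH females Acta2 ranged from 21.2 to 147 CPM, and in CORT females it stood at 75.7 CPM in F4, 62.4 in F2, 43.7 in F8, 131 in F6 and 99.2 in F10 (log2FC 0.46, SE 0.40, edgeR adjusted p = 0.423). The groups overlapped, and the summed smooth muscle and mural cell markers, at 372 to 761 CPM in VEH and 403 to 557 CPM in CORT females, overlapped as well. Stambpl1, 756 bases from Acta2 on the opposite strand, had opposite signs in the sexes and did not pass. Its log2FC was -1.01 in males (SE 0.33, edgeR adjusted p = 0.0184) and 1.03 in females (SE 0.32, edgeR adjusted p = 0.0219).

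Of the non-muscle alpha-actinins, Actn4 was higher in CORT females. VEH females ranged from 37.8 to 84.8 CPM with a median of 55.7, and CORT females stood at 66.5 CPM in F4, 90.3 in F2, 59.7 in F8, 148 in F6 and 105 in F10. All 5 CORT females lay above the VEH mean of 56.1 ± 15.8 CPM (SD, n = 6), but F4 and F8 fell inside the VEH range (log2FC 0.74, SE 0.19, edgeR adjusted p = 0.00689). The 3 mice above that range, F2, F6 and F10, were the 3 that carried adipocyte markers. Without them the log2FC was 0.16 (edgeR adjusted p = 0.728), and without the mice that carried hepatocyte markers it was 0.34 (edgeR adjusted p = 0.268). Actn4 passed in 20 of 32 other analyses in females. In males it ranged from 46.6 to 64.6 CPM in VEH and 42.7 to 56.5 CPM in CORT mice (log2FC -0.16, SE 0.18, edgeR adjusted p = 0.506).

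Actn1, the least abundant member, ranged from 6.39 to 8.84 CPM in VEH males and 5.58 to 9.43 CPM in CORT males, with overlap (log2FC -0.14, SE 0.24, edgeR adjusted p = 0.665). VEH females ranged from 6.94 to 20 CPM, and CORT females stood at 11 CPM in F4, 11.9 in F2, 9.15 in F8, 23.2 in F6 and 19.9 in F10 (log2FC 0.41, SE 0.24, edgeR adjusted p = 0.223). The 2 highest CORT females, F6 and F10, were again among those with adipocyte and hepatocyte markers.

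The difference between the sexes in the response to corticosterone was tested as an interaction. No member passed, beside 0.690% of all genes; 4 of 9 had an unadjusted p under 0.05, as had 32.1% of all genes, and DESeq2 and limma-voom called 2 each. Nearest the threshold was Actn3, with a male response 1.28 log2 units above that of females (SE 0.31, edgeR adjusted p = 0.0174). It was followed by Actb (-0.68, SE 0.18, edgeR adjusted p = 0.0243) and Actn4 (-0.90, SE 0.26, edgeR adjusted p = 0.0331). DESeq2 called Actb and Actn3, and limma-voom Actb and Actn4. Without F8, edgeR called all 3. Without the adipocyte-marked mice the interaction was -0.33 for Actb (edgeR adjusted p = 0.356), -0.31 for Actn4 (edgeR adjusted p = 0.536) and 1.22 for Actn3 (edgeR adjusted p = 0.0695). Without the hepatocyte-marked mice it was -0.46 for Actb (edgeR adjusted p = 0.206), -0.52 for Actn4 (edgeR adjusted p = 0.309) and 1.22 for Actn3 (edgeR adjusted p = 0.0747). For Actc1 the interaction was -0.60 (SE 0.88, edgeR adjusted p = 0.663) with all mice and 1.09 without F4 (edgeR adjusted p = 0.213). Its direction also turned with F4 kept, to 0.54 in limma-voom.

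Between VEH males and VEH females no member passed, beside 0.958% of all genes, and 2 of 9 had an unadjusted p under 0.05, as had 13.2% of all genes; DESeq2 and limma-voom called 0 each. Actc1 came nearest, with a log2FC of males over females of -2.22 (SE 0.64, edgeR adjusted p = 0.0692). Its levels overlapped, the highest VEH male at 990 CPM and the lowest VEH female at 872 CPM. Without F4, a CORT female that enters this comparison only through the shared spread, Actc1 passed (edgeR adjusted p = 0.00459).

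Between CORT males and CORT females 5 of 9 passed, beside 23.3% of all genes, of which 9.31% were higher and 14% lower in males. Actn3 was higher in males (log2FC 1.06, SE 0.23, edgeR adjusted p = 0.00128), and all 6 CORT males lay above all 5 CORT females. Actn4 was lower in males (-0.91, SE 0.19, edgeR adjusted p = 0.00112), and its groups, 42.7 to 56.5 and 59.7 to 148 CPM, did not overlap. The share of all genes without overlap was not computed for this comparison, so the lack of overlap in Actn3 and Actn4 only describes their levels. Actb (-0.62, SE 0.13, edgeR adjusted p = 0.00116), Actn1 (-1.11, SE 0.25, edgeR adjusted p = 0.00158) and Actc1 (-2.83, SE 0.67, edgeR adjusted p = 0.00255) were lower in males, with overlap. Without F4 the Actc1 difference was -1.14 and no longer passed (edgeR adjusted p = 0.0498). Without the 3 adipocyte-marked females, 1 of the 9 passed, Actc1, with F4 as 1 of the 2 CORT females left. Without the 5 hepatocyte-marked mice none passed, Actn3 having an edgeR adjusted p of 0.0218 and a log2FC of 0.92. This comparison shares its mice with the 2 comparisons of corticosterone and vehicle.

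Other genes of the actin cytoskeleton were counted in 4 lists. Of 26 genes of the sarcomeric thin filament and Z-disc, 6 were higher, 1 lower and 19 not called in males. This is 26.9% called, near the 26.3% of all genes, with a median log2FC of 0.43 beside -0.02 over all genes. Those with the lowest adjusted p in males were Pdlim5, a PDZ-LIM protein of the Z-disc (1.47, SE 0.16, edgeR adjusted p = 5.56e-07), Mypn (0.77), Myot (0.79) and Myoz1 (0.75), which encode the Z-disc proteins myopalladin, myotilin and myozenin 1. The 1 lower gene was Myoz3, another myozenin (-1.12, SE 0.22, edgeR adjusted p = 0.000351). In females 1 was higher, Pdlim5 (1.33, SE 0.16, edgeR adjusted p = 1.37e-05), and 2 were lower, Capzb, the capping protein subunit at the barbed end (-0.58), and Myoz3 (-1.01). The share called in females was 11.5% beside 13.4% of all genes, and the median was 0 beside 0.04 over all genes.

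Of 42 genes of cytoplasmic actin assembly and crosslinking, 2 were higher and 8 lower in males (median -0.12), or 23.8% called beside 26.3% of all genes. Vasp, which speeds filament elongation (-1.60, SE 0.18, edgeR adjusted p = 1.2e-06), profilin Pfn1, which feeds monomers to growing ends (-0.68, SE 0.09, edgeR adjusted p = 4.03e-06), and thymosin Tmsb10, which sequesters monomers (-1.46, SE 0.19, edgeR adjusted p = 6.06e-06), fell. The 2 higher genes were the talin Tln2 (0.91, SE 0.14, edgeR adjusted p = 3.08e-05) and Cap2 (0.62), the latter named after its value was seen. In females 2 were higher, Twf1 (0.76) and Wasf2 (0.47), and 2 lower, Vasp (-0.99, SE 0.19, edgeR adjusted p = 0.000855) and Pfn1 (-0.63, SE 0.09, edgeR adjusted p = 6.55e-05), with a median of 0.14. The share called in females was 9.52% beside 13.4% of all genes. Between CORT males and females 15 of the 42 were lower and 1 higher in males, 38.1% called beside 23.3% of all genes. The median was -0.41 beside -0.03 over all genes. Counts of this comparison were not recomputed without F2, F6 and F10. Fibroblast markers were lower in CORT males too, 5 of 6 passing (83.3%), and 4 of 6 macrophage markers passed lower (66.7%). Their part in these counts was not tested.

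Of 10 measured genes for SRF, the myocardin-related factors and their cofactors, 2 were lower in males and 0 higher, or 20% beside 26.3% of all genes. These were Mrtfa, which carries the signal of free actin monomer to SRF (-1.33, SE 0.16, edgeR adjusted p = 1.55e-06), and Tead1, a partner transcription factor (-0.64, SE 0.10, edgeR adjusted p = 5.04e-05). In females Mrtfa alone was lower (-0.81, SE 0.16, edgeR adjusted p = 0.00112), or 10% called beside 13.4% of all genes. Of 5 actin-modifying enzymes none was called in males by edgeR, and 2, or 40%, in females, beside 13.4% of all genes. Mical3, of the family of actin oxidases, was higher in females (0.31, SE 0.07, edgeR adjusted p = 0.00402). Setd3, which methylates a histidine of actin, was lower in females (-0.31, SE 0.08, edgeR adjusted p = 0.00838). In males its log2FC was 0.23 (SE 0.08, edgeR adjusted p = 0.0253). The Setd3 interaction was 0.54 (SE 0.11, edgeR adjusted p = 0.0114). Between CORT males and females Setd3 passed, higher in males (0.52, SE 0.08, edgeR adjusted p = 0.000148).

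**Figure D5:**
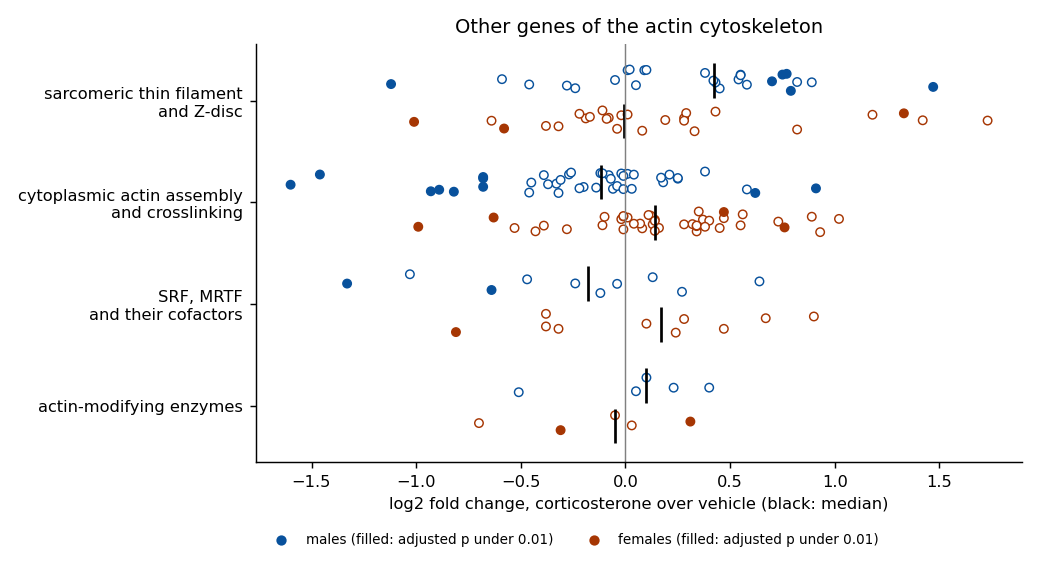
Log2 fold change of CORT over VEH for every tested gene of the 4 lists, with a point per gene, filled where the adjusted p was under 0.01, and a black bar for the median, males above females in each list. Males lie to the right for the thin filament and Z-disc list (median 0.43) and in females the median is 0.

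To see which genes varied with each member from mouse to mouse, correlations of log2 CPM were taken over the 23 mice after each group's mean was removed. They are descriptions, since the points share their libraries and tissue pieces. Actn2 ran closest to Rcan2, a calcineurin regulator (r = 0.97), Hspb7 and Esrrg (0.96 each), the last a nuclear receptor of oxidative muscle. Actn3 ran closest to Arfgap2, Dnajb12 and Atp2a1, the calcium pump of fast fibers (0.93 each). Acta1 followed Farsb, a subunit of a tRNA synthetase (0.93), and Eef1a2, the elongation factor of mature muscle, and Tcea3 (0.90 each).

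Acta2 ran closest to Tagln, the smooth muscle transgelin (0.96), Flna and Myl9 (0.93 each). Actn4 followed Arhgap1 and Col4a2 (0.96 each) and Col4a1 (0.95), the 2 collagen genes of basement membrane, and Actn1 followed Csrp1 (0.94), Flna (0.92) and Cap1 (0.91). Actg1 ran closest to Actb (0.85), then Itm2c (0.82) and Tspan14 (0.81), and Actb to Myo6 (0.88), Srebf1 and Sept9 (0.86 each). Actc1 was closest to the glycolytic enzyme gene Pfkm (0.87), Casr and 6330403L08Rik (0.85 each). F4, far above the other CORT females in Actc1, weighs heavily in these values, which were not recomputed without it.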

How the data were processed

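The authors aligned 100 bp read pairs of stranded libraries to mm10 with STAR 2.7.3a, counted uniquely assigned reads by strand with HTSeq 0.12.4 on Ensembl release 97, and deposited raw counts per gene and mouse. The 5 summary entries, 10.7% to 15.3% of read pairs, were left out. Gene positions and exon lengths came from GENCODE M21 (GRCm38), which matched 55480 of 55573 gene IDs. Counts were tested in R 4.3.3 with edgeR 4.0.16 (TMM, quasi-likelihood, 1 mean per group, 23 mice) over the 13049 genes for which 4 or more mice of a group exceeded 20 normalized counts, at an adjusted p of 0.01. SE is the size of the log2FC divided by the square root of F. CPM is TMM-normalized. Males minus females is the direction of the interaction. Alternatives used DESeq2 1.42.0, limma 3.58.1 (voom), other scalings and filters, and 23 fits that each left out 1 mouse. Scripts were tested on simulated data. Replicates are separate mice, and all pairs differed by more than sampling noise (chi-square over its degrees of freedom at least 15.0). The members and lists were chosen with earlier results of these data known. Genes named were the 9 members, those nearest tested neighbours that lie within 2 kb, up to 4 genes per list and sex with the lowest adjusted p, and the 3 genes most correlated with each member. Neighbours within 2 kb were described after their values were seen, and leaving out the mice with over 1000 CPM of adipocyte or hepatocyte markers was likewise chosen after seeing the data.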

Additional observations from a re-analysis of the deposited data

Results flagged for a closer look

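Of 44 groups of mice examined for a value far from the rest, 3 held one. They covered the levels, the Actc1 share of the 6 actins and the Actn3 share of Actn2 and Actn3. Chance gives about 1 in 20, and 3 of 44 is near that rate. Actc1 stood at 1113.4 CPM in the CORT female F4, the nearest other mouse of the group being at 144 CPM. The Actc1 share of the 6 actins in the same mouse was 2.27%, against 0.347% in the nearest, and it rests on the same reads. Acta2 stood at 81.3 CPM in the CORT male M2, against 37.5 CPM in the nearest.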

How the results depend on the processing

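Of 1458 recomputed member fold changes, 1371 kept their direction and side of the threshold, 44 changed sign, 30 were no longer past it and 13 newly were. With coding length in place of exon length, 17 of 32 group means of the shares and ratios moved by at least their SD. The other 15 moved by less. Of 80 recomputed list counts, 58 stayed near the main count and 22 did not. The calls in males were 4 in each alternative, except 2 with a log2FC beyond 1. In females the 2 calls became 1 with no filter beyond 1 count and 1 beyond a log2FC of 1, 0 in a fit of the 2 groups alone, 0 without the hepatocyte-rich and 0 without the adipocyte-rich mice, and 0 to 2 leaving out 1 mouse (0 without F2; 1, Actc1, without F1, F5, F6, F7, F9, F10 or F11). The interaction gave 2 calls in DESeq2, 2 in voom and 0 to 3 leaving out 1 mouse. Vehicle-treated males against females gave 1 (Actc1) in a fit of the 2 groups and 0 to 1 leaving out 1 mouse. Corticosterone-treated males against females gave 2 in a fit of the 2 groups, 3 beyond a log2FC of 1, 0 without hepatocyte-rich and 1 without adipocyte-rich mice. Why these counts moved was not tested, beyond the smaller number of mice in the fits that left mice out.

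Numbers of CORT and VEH mice do not repeat, so a replicate block could be fitted only between the sexes. It gave 1 call for the interaction (Actn3), 1 between VEH groups (Actc1) and 5 between CORT groups. Deviations of same-numbered males and females correlated at 0.0846 to 0.477 in 6 VEH pairs and -0.377 to 0.242 in 5 CORT pairs, 7 of the 11 being over 0.1, and 4 of 11 males matched best with their own number. As not every pair was over 0.1, the numbers were not taken to pair the mice.

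Fold changes that changed sign belonged to comparisons in which the gene was not past the threshold, and are given as log2FC. In males leaving out 1 mouse gave -0.020 to 0.20 for Acta1, -0.30 to 0.14 for Acta2 and -0.13 to 0.47 for Actn2. In females it gave -0.056 to 0.15 for Actb. Without hepatocyte-rich and without adipocyte-rich mice, in that order, the values in females were 0.054 and 0.14 for Acta1, -0.0079 and -0.022 for Acta2, -0.18 and -0.26 for Actb, and -0.11 and -0.18 for Actn1. The interactions were 0.21 and 0.069 for Acta2 and 0.036 and 0.056 for Actn1, with -0.034 for Acta1 without adipocyte-rich mice. The Actc1 interaction was 0.54 in voom, 0.087 with the replicate block and -0.90 to 1.09 leaving out 1 mouse, and that of Actn2 was 0.10 in voom. Between VEH males and females, Acta1 gave -0.012 with upper quartile scaling, -0.028 without hepatocyte-rich mice and -0.023 to 0.057 leaving out 1 mouse. There Actn4 gave 0.043 in voom, 0.030 with the block and -0.10 to 0.14 leaving out 1 mouse, Actg1 -0.0098 to 0.14 and Actn2 -0.13 to 0.54. Between CORT males and females, Acta1 gave -0.033 without adipocyte-rich mice, and Actn2 0.16 in voom and -0.44 to 0.12 leaving out 1 mouse.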
